A study of Mus musculus with 9 samples.

Results

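The expression of 10 macrophage genes was examined in whole mouse ovary after a high-fat diet. The genes are Gpnmb, Trem2, Cd68, Lgals3, Spp1, Itgax, Adgre1, Mrc1, Csf1r and Cd9, taken by symbol from a table of 33450 rows, and each had a single row with the status OK in all groups. They were chosen by their role in macrophages with the group FPKM of these data known, so their differences are given as a description and carry no test. The ovaries came from 9 C57BL/6J mice, an inbred laboratory strain, aged 15 weeks at the end of 10 weeks of feeding. In the obese group (HFOB) 3 mice had become obese on a diet with 60% fat, and in the lean group (HFLN) 3 mice on that diet had stayed lean. In the control group 3 mice ate standard chow with 16% fat. Membership of HFOB or HFLN followed from the response of the animal and was not assigned. No allele, transgene or drug is named in the labels.

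Macrophages of the ovary clear dying follicle cells and remodel the corpus luteum, and they depend on signals through the CSF1 receptor. Csf1r, Adgre1 (the F4/80 antigen), Mrc1 (the mannose receptor CD206) and Cd68 (a lysosomal glycoprotein) are widely used to count such cells. In fat tissue of obese animals and in atherosclerotic plaque, macrophages that take up lipid are known to switch on a further set that includes Trem2, Gpnmb, Spp1, Lgals3, Itgax and Cd9. Several of these are made by other cells too, such as Cd9 by oocytes and Spp1 and Lgals3 by epithelia.

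All values are FPKM made by the authors, that is, fragments counted per gene and scaled for transcript length and sequencing depth. Each group has 1 value with a lower and an upper bound. The 3 animals of a group are combined in it, and their spread is seen in no other way than through these bounds. No source used here gives the confidence level of the bounds, and the number of fragments behind a value is unknown. Among rows of at least 1 FPKM with a lower bound above 0, the median distance from value to bound was 45.5% of the value in HFOB, 45.3% in HFLN and 46.0% in control. Ovarian genes were abundant in all groups, with the inhibin gene Inha at 1465, 1360 and 1712 FPKM in HFOB, HFLN and control and the oocyte gene Zp3 at 54.4, 53.0 and 52.2 FPKM. Macrophage RNA was present in all groups as well, with the complement gene C1qa at 122.7, 114.8 and 117.1 FPKM and the microglia and macrophage gene Aif1 at 12.0, 13.1 and 12.3 FPKM in the same order. A whole-ovary level cannot tell more or fewer cells of a type from more or less RNA per cell.

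Among the 10 genes Gpnmb had the widest ratio between group values, with its highest level in obese mice. Csf1r and Mrc1, which count macrophages, each differed by less than 0.1 between groups on the log2(FPKM + 1) scale as deposited. For Mrc1 in HFLN against control that difference was 0.099, and it was 0.11 with a pseudocount of 0.1 FPKM. Adgre1, a further such gene, was 1.21-fold higher in HFOB than in control. The deposited intervals overlapped for every member in every comparison. Gpnmb encodes a glycoprotein of lysosomes and the cell surface that lipid-laden macrophages make in quantity. It stood at 26.4 FPKM in HFOB (deposited interval 14.2 to 38.5), 17.0 in HFLN (9.48 to 24.6) and 12.3 in control (6.61 to 17.9). The order HFOB, HFLN, control was graded. The HFOB value lay above the upper bound of control and the control value lay below the lower bound of HFOB. The HFOB value also lay above the upper bound of HFLN. The HFLN and control values each lay inside the interval of the other. The ratio of HFOB over control was 2.15, and the bounds allow 0.793 to 5.83. For HFLN over control it was 1.39 (0.528 to 3.72), and for HFOB over HFLN 1.55 (0.578 to 4.06). On the log2(FPKM + 1) scale, which understates differences of low genes, Gpnmb differed by 1.04 in HFOB against control, by 0.44 in HFLN against control and by 0.60 in HFOB against HFLN. Scaled to the same FPKM sum in each group, these differences were 1.26, 0.96 and 0.30, so that the order held and the size of each step depended on the scaling. That scaling shifted all rows too. Relative to the median of all rows, Gpnmb lay at 1.05, 0.44 and 0.61 as deposited and at 1.08, 0.48 and 0.60 after it. The third difference follows from the other two, and both comparisons with control share the same 3 mice.

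**Figure D1:**
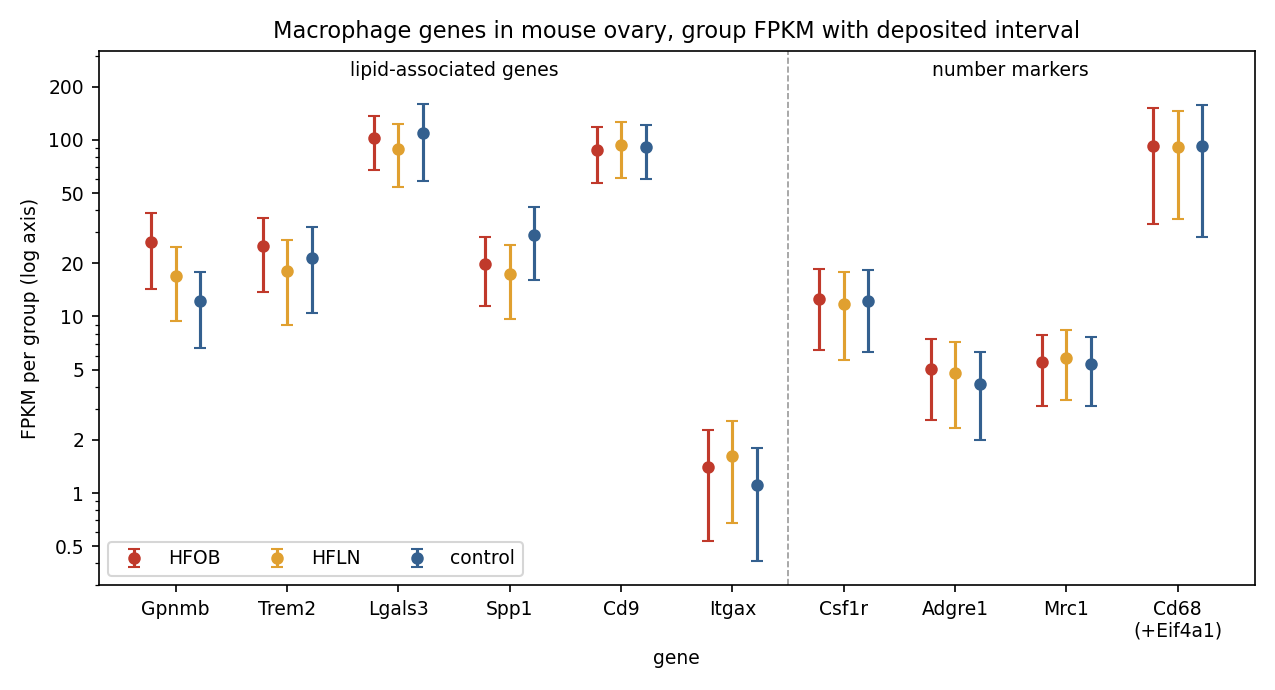
Group FPKM (log axis) of the 10 macrophage genes in HFOB, HFLN and control ovaries, with points for the deposited value and bars for the deposited interval. Gpnmb steps down across HFOB, HFLN and control at 26.4, 17.0 and 12.3 FPKM, whereas Csf1r stays between 11.8 and 12.5 FPKM.

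The Gpnmb gene lies on chromosome 6 of GRCm38.p6, which shares its chromosomes with mm10, from 49036518 to 49058182 in the RefSeq annotation. The authors' row covers it and runs on to 49070220. A second row without a gene symbol is listed over the same span, at 0.689 FPKM in HFOB, 0.254 in HFLN and 0.252 in control. No source used here gives the strand setting of the authors' tools, and reads shared between these rows cannot be told apart.

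The 250 bases upstream of an annotated start are shown for 3 members that differed in pattern: Gpnmb (highest in HFOB), Spp1, the osteopontin gene (highest in control), and Mrc1, the mannose receptor gene (within 0.1 on the log2 scale as deposited). They come from the RefSeq promoter table for GRCm38.p6 and are written in the direction of transcription. From it 9 windows were read for 8 of the 10 members, 2 of them for Spp1. No window of Adgre1 or Csf1r was among those read, so their upstream bases were not searched. Capitals mark matches to CACGTG or CATGTG, E-boxes that MITF and its relatives bind, to GAGGAAGT, a site of the macrophage factor PU.1, or to TGAGTCA, the AP-1 site. Both strands were searched, and none of the marked matches overlaps another.
Gpnmb, chr6:49036268-49036517, plus strand: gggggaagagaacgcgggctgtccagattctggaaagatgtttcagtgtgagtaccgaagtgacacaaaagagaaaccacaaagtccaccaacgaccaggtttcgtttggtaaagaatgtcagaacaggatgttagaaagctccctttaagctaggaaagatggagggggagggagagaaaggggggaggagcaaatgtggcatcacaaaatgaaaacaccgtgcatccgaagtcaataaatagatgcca
Spp1, chr5:104434861-104435110, plus strand: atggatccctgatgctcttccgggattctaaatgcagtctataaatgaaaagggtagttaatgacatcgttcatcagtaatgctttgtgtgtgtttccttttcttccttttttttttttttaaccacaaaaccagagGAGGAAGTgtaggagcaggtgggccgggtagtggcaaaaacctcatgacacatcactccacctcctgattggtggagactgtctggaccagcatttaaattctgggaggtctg
Mrc1, chr2:14229164-14229413, plus strand: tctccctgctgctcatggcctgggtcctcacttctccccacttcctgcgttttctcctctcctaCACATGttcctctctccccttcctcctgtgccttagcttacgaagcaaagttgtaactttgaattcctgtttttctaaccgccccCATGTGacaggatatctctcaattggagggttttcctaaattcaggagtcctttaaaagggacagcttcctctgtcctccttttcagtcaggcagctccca
The Gpnmb window held none of the 4 motifs. The Spp1 window shown, that of the first of its 2 annotated starts, held GAGGAAGT from 113 to 106 bases before the start, and the window of the other start held none of the 4 motifs. The Mrc1 window held CATGTG from 101 to 96 bases and its reverse complement CACATG from 186 to 181 bases before the start. Among all 32851 upstream windows of the same length, 6.02% held CACGTG, 12.3% CATGTG, 2.44% GAGGAAGT and 4.46% TGAGTCA. A match describes letters and not binding, and the lack of a match covers this window alone.

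A member was counted as past the rule when its fold was at least 2 on the log2(FPKM + 1) scale and the 2 deposited intervals lay apart. In HFOB against control 0 of 10 members were past it, with 0.366% of all 16929 rows considered past it. In HFLN against control 0 of 10 were past it (0.283% of 16932 rows), and in HFOB against HFLN 0 of 10 (0.195% of 16931 rows). With the fold of 2 alone, Gpnmb was the single member higher in HFOB than in control (0.402% of all rows), and no member was lower by as much (0.874% of all rows). No member reached the fold of 2 in HFLN against control, where 0.307% of all rows were higher and 1.16% lower by it, or in HFOB against HFLN, where 0.709% were higher and 0.52% lower. With intervals apart and no fold asked, 0 of 10 members were counted in each comparison, against 0.372% of all rows in HFOB against control, 0.283% in HFLN against control and 0.207% in HFOB against HFLN. At a fold of 1.5 with no intervals asked, Gpnmb was the single member higher in HFOB than in control (1.16% of all rows) and none was lower (2.64%). It was also the single member higher by that fold in HFOB than in HFLN (1.7% of all rows), and none was lower (2.43%). Among the 13652 protein-coding rows considered, 8 had as high a log2 difference in HFOB against control as Gpnmb, itself included. Of 9977 other protein-coding rows with a mean of at least 5 FPKM, 3 did, those of Mrpl42, Pcp4 and Sncg, which were named after their values were seen. In HFLN against control, 282 of 13655 protein-coding rows were as high as Gpnmb.

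Csf1r, the receptor on which macrophage survival depends, stood at 12.5 FPKM in HFOB (6.45 to 18.5), 11.8 in HFLN (5.67 to 17.95) and 12.3 in control (6.28 to 18.3). Its ratio of HFOB over control was 1.02, and the bounds allow 0.353 to 2.95. Its row spans chromosome 18 from 61096836 to 61177053, which also holds the neighbouring gene Hmgxb3. That gene has a row of its own with the same span at 8.90, 8.57 and 10.1 FPKM in HFOB, HFLN and control.

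Adgre1, an adhesion receptor found on mouse macrophages, stood at 5.04 FPKM in HFOB (2.58 to 7.497), 4.77 in HFLN (2.33 to 7.21) and 4.15 in control (1.99 to 6.31). It had the same graded order as Gpnmb, with a ratio of HFOB over control of 1.21 (0.409 to 3.76). That order was found in 2 of 10 members and in 14.7% of all 16929 rows. After scaling to the same sum Adgre1 was highest in HFLN, with a log2 difference of -0.21 in HFOB against HFLN. Mrc1, an endocytic receptor of tissue-resident macrophages, stood at 5.504 FPKM in HFOB (3.11 to 7.90), 5.84 in HFLN (3.34 to 8.34) and 5.39 in control (3.10 to 7.69). Neighbouring levels of these 3 genes did not differ beyond the deposited intervals, and the summed FPKM of Adgre1, Csf1r and Mrc1 was 23.0 in HFOB, 22.4 in HFLN and 21.8 in control.

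The row that holds Cd68 does not measure Cd68 alone. Its identifiers map to Cd68 and to the neighbouring Eif4a1, a translation initiation factor made in most cells, and its span on chromosome 11 runs from 69663735 to 69696098, whereas the Cd68 gene runs from 69664213 to 69666170. The row stood at 92.4 FPKM in HFOB (33.4 to 151.4), 91.0 in HFLN (35.6 to 146.4) and 92.7 in control (28.1 to 157). The bounds lay 63.9%, 60.9% and 69.7% of the value away, the widest of the 10 members in HFOB, HFLN and control. How much of the value comes from Cd68 is unknown, and the row gives no measure of Cd68.

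Relative to the number markers, Gpnmb was highest in HFOB. The ratio of Gpnmb to Csf1r was 2.11 in HFOB, 1.44 in HFLN and 1.00 in control. To Adgre1 it was 5.23, 3.57 and 2.96 in the same groups, and to Mrc1 4.79, 2.91 and 2.28. The bounds leave a wide range for each, from 0.768 to 5.97 for Gpnmb over Csf1r in HFOB and from 0.362 to 2.86 in control, and these ranges overlap. The log2 difference of Gpnmb minus the median of the 4 number markers was 1.02 in HFOB against control, 0.41 in HFLN against control and 0.56 in HFOB against HFLN. Without the row shared with Eif4a1 these values were 1.02, 0.34 and 0.54. FPKM are scaled per length, so a ratio compares RNA per unit of transcript.

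**Figure D2:**
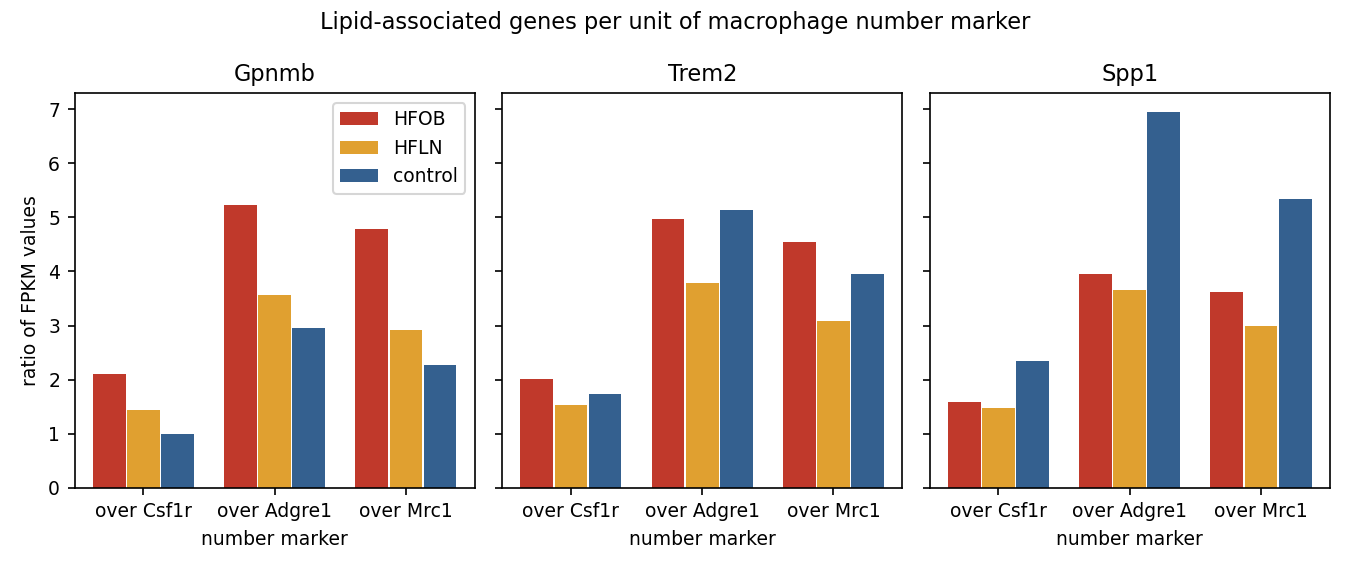
Ratio of the FPKM of Gpnmb, Trem2 and Spp1 to that of the number markers Csf1r, Adgre1 and Mrc1 in HFOB, HFLN and control ovaries, with bars from 0 and without the bounds, which overlap between groups for Gpnmb over Csf1r. Gpnmb over Csf1r is 2.11 in HFOB and 1.00 in control, while Spp1 over Csf1r is 1.59 in HFOB and 2.35 in control.

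Trem2, a lipid-sensing receptor of macrophages that in mice is needed for the lipid-associated state, was highest in HFOB and lowest in HFLN as deposited. It stood at 25.01 FPKM in HFOB (13.8 to 36.2), 18.03 in HFLN (8.95 to 27.1) and 21.3 in control (10.4 to 32.2). Each value lay inside the intervals of the other groups. Its log2 differences were 0.22 in HFOB against control, -0.23 in HFLN against control and 0.45 in HFOB against HFLN. Scaled to the same sum they were 0.43, 0.29 and 0.14, which turned the sign in HFLN against control and gave Trem2 the order of Gpnmb. Relative to the median of all rows, Trem2 in HFLN against control lay at -0.23 as deposited and at -0.20 after that scaling. Gpnmb over Trem2 was 1.05 in HFOB, 0.945 in HFLN and 0.576 in control. Tyrobp, the adaptor through which TREM2 signals, stood at 90.6 FPKM in HFOB, 75.6 in HFLN and 79.3 in control, in the same order as Trem2. The ratio of Trem2 to Tyrobp was 0.276, 0.239 and 0.269 in these groups. Of the 8 listed signalling partners of TREM2, 5 were higher and 3 lower in HFOB than in control, and 6 were higher in HFLN than in control, with none past the rule. Ms4a4a, a membrane protein whose human counterpart is linked to TREM2 levels, stood at 3.78, 3.94 and 2.75 FPKM in HFOB, HFLN and control, and the kinase gene Syk at 7.86, 7.90 and 6.99 FPKM.

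Spp1 was highest in control, where Gpnmb was lowest. Spp1 encodes osteopontin, a secreted matrix protein that binds integrins and CD44. It stood at 19.9 FPKM in HFOB (11.5 to 28.3), 17.4 in HFLN (9.64 to 25.2) and 28.8 in control (16.1 to 41.5). The control value lay above the upper bound of both diet groups, while the intervals overlapped. The ratio of HFOB over control was 0.691 (0.277 to 1.76) and that of HFLN over control 0.606 (0.232 to 1.57). In HFLN against control the log2 difference of -0.69 made Spp1 the single member with a fold of 1.5 or more lower (2.82% of all rows). No member was higher by that fold there (1.24% of all rows). After scaling to the same sum Spp1 differed by -0.17 in HFLN against control, short of that fold, and by -0.30 in HFOB against control. Both differences share the control value. Of 7 listed receptors for the ligands, 3 were higher and 4 lower in HFOB than in control, and the osteopontin receptor Cd44 stood at 4.55 FPKM in HFOB, 5.77 in HFLN and 5.59 in control.

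Lgals3 and Cd9 were the most abundant members with a row of their own. Lgals3 encodes galectin-3, a secreted lectin that binds sugar chains, and stood at 102 FPKM in HFOB (67.2 to 136.7), 88.5 in HFLN (54.0 to 123.1) and 109 in control (58.8 to 159). Cd9, a tetraspanin that organises membrane complexes and is required on the egg for fusion with sperm, stood at 88.1 FPKM in HFOB (57.2 to 119), 93.7 in HFLN (60.8 to 126.6) and 90.8 in control (59.9 to 121.8). Log2 differences of Cd9 were within 0.1 in all 3 comparisons as deposited, and were 0.17 in HFOB against control, 0.58 in HFLN against control and -0.41 in HFOB against HFLN after scaling to the same sum. For Lgals3 they were -0.10 in HFOB against control, -0.30 in HFLN against control and 0.20 in HFOB against HFLN. That scaling turned all 3 signs of Lgals3, to 0.12, 0.24 and -0.12. Relative to the median of all rows, Lgals3 lay at -0.09, -0.30 and 0.21 as deposited and at -0.06, -0.25 and 0.18 after it. Taken in that way, Cd9 lay at -0.03, 0.04 and -0.08 as deposited and at -0.01, 0.10 and -0.11 after it. The 9 listed tetraspanins, Cd9 included, had a median log2 difference of 0.03 in HFOB against control and 0.02 in HFLN against control, with Cd63 at 128.8, 128.0 and 144.4 FPKM in HFOB, HFLN and control.

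Itgax, the CD11c integrin subunit of dendritic cells and of macrophages in obese fat tissue, was the least abundant member. It stood at 1.40 FPKM in HFOB (0.537 to 2.27), 1.62 in HFLN (0.674 to 2.56) and 1.10 in control (0.414 to 1.79), with all values inside the intervals of the other groups. Of 8 markers of dendritic cells 3 reached 1 FPKM, and the summed FPKM of all 8 was 15.6 in HFOB, 15.9 in HFLN and 15.2 in control.

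**Figure D3:**
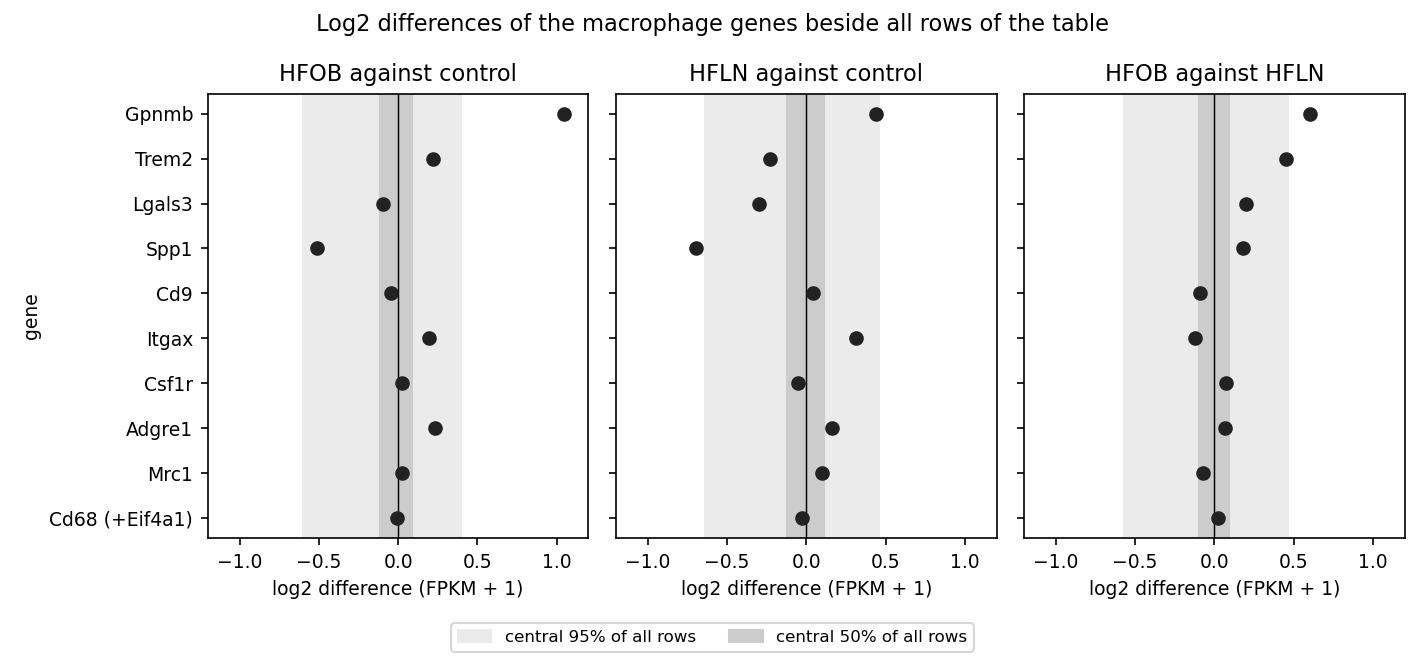
Log2 difference of the 10 macrophage genes on the log2(FPKM + 1) scale in HFOB against control, HFLN against control and HFOB against HFLN, over shaded bands that hold the central 50% and 95% of all rows considered. Gpnmb lies at 1.04 in HFOB against control, outside the band from -0.60 to 0.40, and Spp1 lies at -0.69 in HFLN against control, outside the band from -0.64 to 0.46.

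As a group the 10 genes had a median log2 difference of 0.02 in HFOB against control, 0.01 in HFLN against control and 0.07 in HFOB against HFLN. The medians over all rows considered were -0.01, 0.00 and -0.01. The deposited FPKM summed to 820778 in HFOB, 656115 in HFLN and 956327 in control, and rows without a gene symbol held 36.8%, 27.6% and 42.2% of these sums. Scaling each group to the same sum shifted the median of all rows by 0.19 in HFOB against control, 0.48 in HFLN against control and -0.29 in HFOB against HFLN. Directions are given as deposited unless stated. That scaling turned the sign of 12 of the 30 differences of members, and of 1, the row of Cd68 in HFLN against control, when taken relative to the median of all rows. Above the median of all rows lay 7, 5 and 7 of the 10 members as deposited in these comparisons, and 7, 6 and 7 after that scaling.

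Other genes of macrophage identity were set beside Gpnmb. Of 22 listed, 19 were higher and 3 lower in HFOB than in control, with a median log2 difference of 0.09 and a range from -0.18 to 0.42, and 0 were past the rule. Of all rows, 47.0% were higher in HFOB than in control and 50.1% in HFLN than in control. After scaling to the same sum, 16 of the 22 lay above the median of all rows. In HFLN against control 12 were higher and 10 lower, with a median of 0.01. All 22 lay below Gpnmb in HFOB against control. The highest was the row of the lysozyme genes Lyz2 and Lyz1, at 337 FPKM in HFOB (214 to 459), 235.5 in HFLN (153 to 317.6) and 252 in control (164.9 to 339.6). Mpeg1, a pore-forming protein of phagocytes, stood at 20.2, 19.6 and 16.2 FPKM in HFOB, HFLN and control, and the monocyte receptor Ccr2 at 1.80, 1.77 and 1.31. The 12 listed genes of tissue-resident macrophages, 2 of which are also on the identity list, had a median of 0.02 in HFOB against control, with 6 higher and 6 lower, and 5 lay above the median of all rows after scaling to the same sum. Within it the folate receptor gene Folr2 stood at 4.67, 3.84 and 3.69 FPKM and the transcription factor gene Maf at 26.9, 25.9 and 34.6. F13a1, a clotting factor subunit made by such cells, had 3.14, 3.15 and 1.98 FPKM, and all 3 of its lower bounds are 0. The CSF1 receptor ligands Csf1 and Il34 stood at 7.12 and 8.54 FPKM in HFOB, 8.07 and 7.80 in HFLN and 7.52 and 7.37 in control.

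The 6 lipid-associated members split into 3 higher and 3 lower in HFOB than in control. Of 22 other listed genes that accompany the lipid-associated state, 17 were higher and 5 lower in HFOB than in control (47.0% of all rows were higher), with a median log2 difference of 0.17 and none past the rule, and 17 lay above the median of all rows after scaling to the same sum too. In HFLN against control 14 were higher and 8 lower, with a median of 0.04. Ctss, a lysosomal protease of antigen-presenting cells, had the graded order at 86.8 FPKM in HFOB (57.0 to 116.5), 73.4 in HFLN (47.4 to 99.3) and 58.7 in control (38.6 to 78.8). Mmp12, the macrophage elastase, stood at 5.11 FPKM in HFOB (2.84 to 7.37), 5.496 in HFLN (2.88 to 8.11) and 2.76 in control (1.28 to 4.24). The fatty-acid binding protein gene Fabp4, which adipocytes make in quantity, stood at 139, 87.2 and 77.2 FPKM in HFOB, HFLN and control. These 22 genes are not limited to macrophages, and the part of macrophages in their values was not tested. The 18 lysosome genes and regulators had a median of 0.03 in HFOB against control, with 10 higher and 8 lower. Mitf, which encodes a transcription factor known to switch on Gpnmb and lysosome genes, stood at 3.39 FPKM in HFOB (1.74 to 5.04), 3.06 in HFLN (1.52 to 4.597) and 2.79 in control (1.35 to 4.23). The lysosomal enzyme gene Hexa stood at 138.7, 122.8 and 125.6 FPKM, and Atp6v1h, a proton pump subunit, at 34.8, 39.3 and 39.6.

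**Figure D4:**
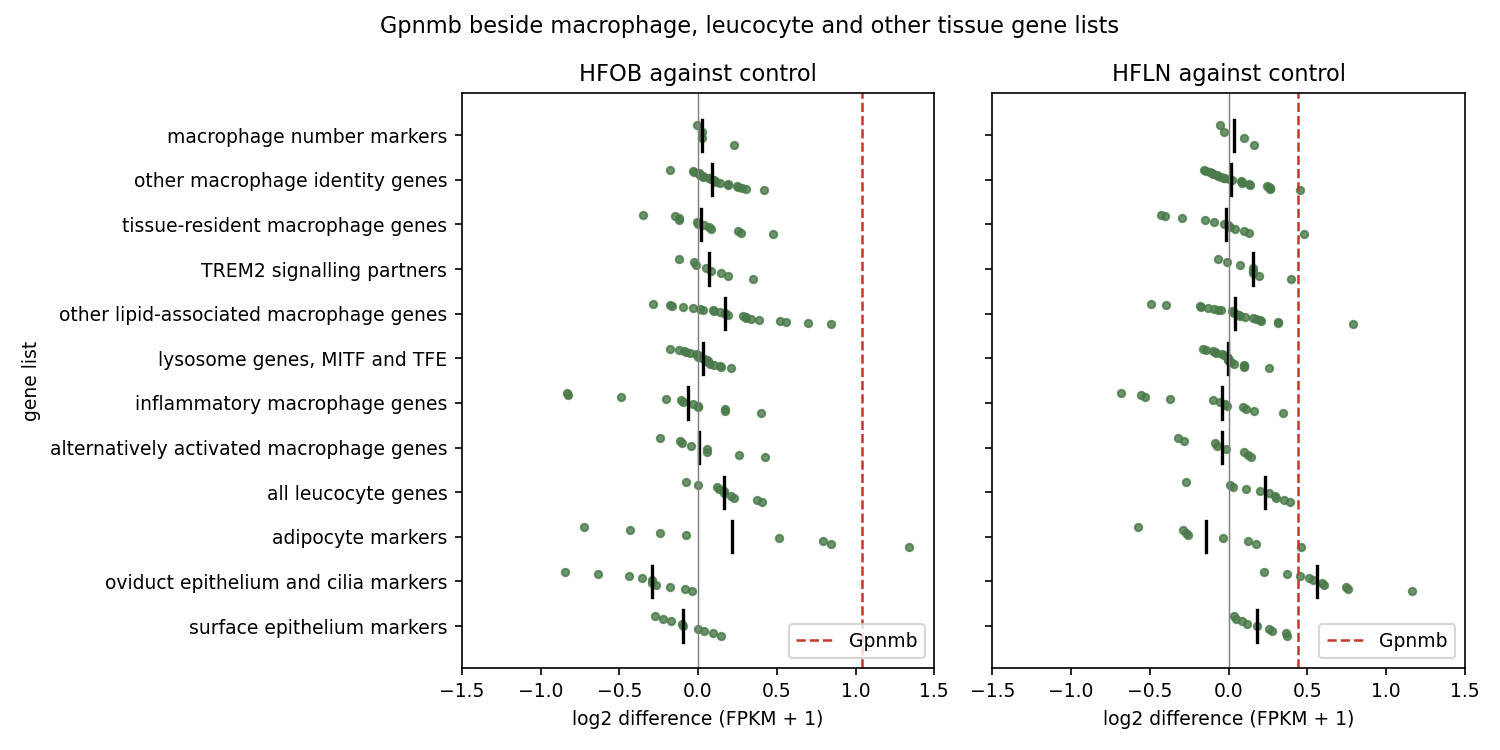
Log2 difference of each gene of 12 lists on the log2(FPKM + 1) scale in HFOB against control and HFLN against control, with points for genes, black bars for list medians and a dashed line for Gpnmb. In HFOB against control all genes shown lie left of Gpnmb except the adipocyte gene Lep, and the medians of the macrophage number markers and other identity genes are 0.02 and 0.09.

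Genes of macrophage activation gave no common direction. Of 12 inflammatory genes 4 were higher and 8 lower in HFOB than in control, with a median of -0.06. These counts include rows below 1 FPKM in all groups, as 8 of the 12 rows reached 1 FPKM in any group. The cytokine gene Il1b stood at 1.37 FPKM in HFOB (0.171 to 2.57), 1.87 in HFLN (0.362 to 3.39) and 3.22 in control (0.993 to 5.45), and Il6 at 0.192, 0.312 and 1.11 with intervals that reach 0. Nos2, the inducible nitric oxide synthase, stood at 19.3, 15.6 and 14.4 FPKM in HFOB, HFLN and control. Of 8 genes of alternative activation, 6 of which reached 1 FPKM in any group, 4 were higher and 4 lower in HFOB than in control. Their median was 0.01. Arg1, an enzyme that breaks down arginine, stood at 2.04, 1.47 and 1.26 FPKM and Retnla, a secreted protein of such cells, at 3.504, 2.09 and 2.76.

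Of 10 listed leucocyte genes, not all of them made by every leucocyte, 8 were higher in HFOB than in control (median log2 difference 0.17, with 47.0% of all rows higher) and 9 in HFLN than in control (0.23, with 50.1% of all rows higher), with 0 past the rule. After scaling to the same sum, 9 and 8 of the 10 lay above the median of all rows in these comparisons. Their summed FPKM was 142.7 in HFOB, 134.6 in HFLN and 130.9 in control. Laptm5, a lysosomal protein of blood cells, stood at 32.0 FPKM in HFOB (21.1 to 42.9), 28.8 in HFLN (18.7 to 38.9) and 23.9 in control (15.5 to 32.3). Itgb2, the integrin chain that pairs with CD11c, stood at 7.20, 7.06 and 5.32 FPKM. Summed FPKM of the other leucocyte lists was 6.66, 7.98 and 6.48 for T and NK cells, 2.36, 2.28 and 2.27 for B cells, 3.28, 3.87 and 3.17 for neutrophils and 23.5, 25.2 and 24.6 for mast cells, in HFOB, HFLN and control. The mast cell sums include Kit at 11.3, 11.4 and 14.2 FPKM. Kit was lower in both diet groups than in control, while the other 5 of the 6 mast cell markers were higher in both. After scaling to the same sum, 4 of the 6 lay above the median of all rows in each of these comparisons. The part of these cells in the values of the members was not tested.

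Markers of other cells that can make Gpnmb or the further members were read beside them. Of 8 melanocyte markers, 7 stayed below 1 FPKM in all groups, and the defining pigment genes Tyr, Tyrp1 and Dct stood between 0 and 0.0379 FPKM. The remaining marker, Oca2, stood at 3.61 FPKM in HFOB (0.611 to 6.61), 2.73 in HFLN (0.755 to 4.71) and 4.24 in control (0.414 to 8.06). Of 7 osteoclast markers 3 reached 1 FPKM, and the summed FPKM of all 7 was 28.0, 24.9 and 24.8 in HFOB, HFLN and control. Acp5 stood at 13.4, 11.9 and 9.80 FPKM, with lower bounds of 0 in all groups. Ctsk stood at 12.2, 10.9 and 12.1 FPKM and Mmp9 at 2.03, 1.83 and 2.47 FPKM in the same order. Adipocyte markers were mixed in HFOB against control. Of 8, 4 were higher and 4 lower in HFOB than in control, Lep was past the rule, and their summed FPKM was 266, 218 and 236 in HFOB, HFLN and control. Among the lower ones, Cfd (0 to 591 in HFOB) and Cidea (0 to 4.31) had lower bounds of 0 in all groups. Plin1 and Retn, also lower in HFOB than in control, had lower bounds above 0 in all groups. Plin1 stood at 12.28, 10.63 and 13.02 FPKM in HFOB, HFLN and control, and Retn at 16.39, 12.75 and 19.53. Both were highest in control, where Gpnmb was lowest. In HFOB against HFLN 6 of the 8 adipocyte markers were higher and 2 lower, with a median log2 difference of 0.50 (47.7% of all rows were higher). There Adipoq, Cidec, Fabp4 and Lep were the only genes of all lists above Gpnmb. Cidec, a lipid droplet protein, stood at 10.98 FPKM in HFOB (5.36 to 16.6), 5.75 in HFLN (2.43 to 9.07) and 5.90 in control (2.42 to 9.39). Lep, the leptin gene, stood at 2.101 FPKM in HFOB (0.759 to 3.44), 0.332 in HFLN (0.0392 to 0.625) and 0.223 in control (0 to 0.455), in the graded order of Gpnmb, and Fabp4, given above, had that order too. No adipocyte marker of the list is listed at 0 in any group. Their part in the Gpnmb values was not tested.

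Epithelial and ovarian lists were set beside Spp1, Lgals3 and Cd9, which such cells can make. Oviduct and cilia markers summed to 369.5, 572.9 and 455.5 FPKM in HFOB, HFLN and control, all 10 lower in HFOB and all 10 higher in HFLN than in control. Surface epithelium markers summed to 352, 434 and 364 FPKM, with all 9 higher in HFLN than in control. Summed FPKM was 1947, 1843 and 2222 for 7 granulosa markers, 7941, 7460 and 9787 for 7 luteal markers, and 233, 219 and 217 for 9 oocyte markers. For 7 endothelial markers it was 235, 222 and 234 FPKM, and for 5 rows of erythrocyte markers 183, 138 and 246 FPKM. The most abundant luteal rows, those of Hsd3b1, Cyp11a1 and Akr1c18, had lower bounds of 0 in all groups, and the last is shared with Akr1c12. Of the luteal markers 6 were lower in HFOB than in control, and 1, Star, was higher, at 169, 230 and 147 FPKM in HFOB, HFLN and control. The part of these cells in the values of the members was not tested.

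The rows whose pair of log2 differences with control came nearest to that of Gpnmb were sought among 9977 protein-coding rows with a mean of at least 5 FPKM. Over 3 group values, the nearest was Dbp, a clock-controlled transcription factor, at a Euclidean distance of 0.298. It was the single row within 0.3, followed by Fabp4 at 0.336, Stc1 at 0.361, Coch at 0.367 and Cxxc4 at 0.370. None of the other 9 members and no gene of the macrophage lists apart from Fabp4 was among these 5. Dbp stood at 61.7, 53.2 and 32.1 FPKM in HFOB, HFLN and control, and Stc1, a secreted glycoprotein hormone, at 34.7, 30.4 and 21.2.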

How the data were processed

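Ovarian RNA of 9 mice in 3 groups was sequenced from libraries that select messenger RNA and keep strand, per the labels' protocols. Per the submitters' processing notes, the tools were Cuffdiff 2.2.1.3, Cufflinks 2.2.1.0, TopHat2 2.1.0 and Trimmomatic 0.32.3, and the build was mm10. No source used here states the annotation, how libraries were scaled or whether counting used strand. The authors deposited 1 FPKM per group and gene with a lower and an upper bound and a status, per the file headers. Single animals have no value of their own in what was analysed here, which leaves no SD or test, and the depth is unknown.

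Symbols came from RefSeq identifiers through the RefSeq annotation of GRCm38.p6, which matched 99.2% of 36886 identifiers, and coordinates count from 1. Computation used Python 3.11.15 with pandas 2.3.3. Log2 differences used a pseudocount of 1 FPKM. Rows were considered where any group reached 1 FPKM and both compared groups had the status OK. The call rule was tested on simulated data with intervals narrower than the median deposited one. That check does not show how the rule behaves at the deposited widths. The linear model planned for values per animal was replaced by the description planned for group values. Members and gene lists were chosen with earlier results of these data known. Per list, up to 3 genes of at least 1 FPKM with the widest log2 difference in HFOB against control could be named, besides the cell type markers read as checks and the 5 protein-coding rows nearest to Gpnmb. Rows shared by listed genes counted once, and 765 rows of the table merge several symbols. The alternatives tried were another pseudocount, other scalings, filters and call rules, and sums over rows.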

Additional observations from a re-analysis of the deposited data

How the results depend on the processing

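The count of members past the rule stayed at 0 of 10 in all 3 comparisons with a pseudocount of 0.1 FPKM, with both scalings, with rows summed per symbol, without the filter on low values and with the intervals alone. With a fold of 1.5 and no intervals asked it was 1 in HFOB against control (Gpnmb), 1 in HFLN against control (Spp1) and 1 in HFOB against HFLN (Gpnmb). Scaled to the same sum in each group, the median log2 difference of the members was 0.22 in HFOB against control, 0.54 in HFLN against control and -0.22 in HFOB against HFLN, beside shifts of all rows of 0.19, 0.48 and -0.29. Of 120 values of single members under alternatives, 32 moved by over 0.1 on the log2 scale, 30 of them under that scaling and 2 with the smaller pseudocount. Gpnmb ran from 1.04 to 1.26 in HFOB against control, from 0.44 to 0.96 in HFLN against control and from 0.30 to 0.63 in HFOB against HFLN, and its difference from the number markers moved by no more than 0.1 in any alternative, those added after the data were seen included. No paired analysis was possible because the table holds no value per animal, and leaving out single replicates was not run for the same reason. Unknown depth and wide bounds limit every ratio.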
